A study of Mus musculus with 12 samples.

Results

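Hand1, Hand2, Foxf1, Tbx20, Isl1, Nkx2-5, Mef2c, Wt1 and Tcf21 are transcription factors of mesoderm and of the heart and the linings that grow from it. They were picked by name, all 9 of them, with earlier results of these data known, from a series table of 54537 genes. Of these, 8 had a row. Foxf1, a forkhead factor of the mesoderm around the gut, was not analysed here. RNA was measured in a mouse embryonic stem (ES) cell line labelled WT+1343KO-a14, called 1343KO here, and in WT ES cells. Each line was taken as undifferentiated cells in serum with leukaemia inhibitory factor (day 0) and, at day 8 and day 16, as embryoid bodies, floating aggregates cultured without that factor. Each of the 6 groups had 2 libraries of poly(A) RNA, 12 in all. The labels give no treatment other than the change of medium and the aggregation, and do not say which gene the knockout label stands for. The label carries 1 clone name, so clone and knockout cannot be told apart. No label describes the replicates as independent cultures, and the p-values below therefore cover the spread of these libraries alone, part or all of which may be technical. The series deals with noncoding RNA knockouts, and its title ties SNORA73 to the exit from pluripotency.

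Snhg3, the gene that hosts SNORA73, was listed at 0 to 1.57 FPKM in the 1343KO libraries, against 8.31 to 61.1 FPKM in the WT libraries. FPKM is a level scaled to transcript length and sequencing depth. Depth is not stated in the files. From the steps between the lowest values it was about 4819000 to 7910000 fragments per library. Replicates correlated at 0.970 to 0.975 over 16289 genes (genes are not independent replicates). All 12 genes of a pluripotency list reached 1 FPKM in every library of every day, so that mark does not set day 0 apart. Their summed level at day 0 was 4387 to 4394 FPKM in 1343KO cells and 3836 to 3872 FPKM in WT cells. Dppa5a alone made up 43.5% and 38.9% of these sums.

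In the embryo, mesoderm that leaves the primitive streak spreads sideways as lateral plate, and part of it becomes the heart, the blood vessels and the mesothelium that lines the body cavities. Its factors act as a network: GATA factors, T-box factors, the NK homeodomain factor Nkx2-5 and the basic helix-loop-helix Hand factors bind near each other's genes and near those of heart muscle, under signals such as BMP and hedgehog. Embryoid bodies repeat parts of this programme without its spatial order and often form beating patches. Several of these factors also work elsewhere, Hand1 in the trophoblast of the placenta, Isl1 and Tbx20 in motor neurons, Wt1 in kidney and gonad, and Mef2c in endothelium and macrophages.

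The promoter windows of Hand2, Tcf21, Isl1 and Tbx20 are shown because these 4 genes passed as lower in the 1343KO line at day 16 and have a single window in the table. Mef2c, which passed as well, has 3 windows, and they are not printed. Each window runs from 250 bases before to 50 bases after the start site, 5′ to 3′ on the gene's own strand, from RefSeq on GRCm38.p6, at chr8:57320733-57321032 (+) for Hand2, chr10:22820094-22820393 (−) for Tcf21, chr13:116309639-116309938 (−) for Isl1 and chr9:24774254-24774553 (−) for Tbx20. Capitals mark matches, on either strand, to the GATA motif (AGATAA or TGATAA), the NK motif (CAAGTG) and an E-box (CATCTG). The T-box motif (GGTGTNA) was searched as well.
Hand2: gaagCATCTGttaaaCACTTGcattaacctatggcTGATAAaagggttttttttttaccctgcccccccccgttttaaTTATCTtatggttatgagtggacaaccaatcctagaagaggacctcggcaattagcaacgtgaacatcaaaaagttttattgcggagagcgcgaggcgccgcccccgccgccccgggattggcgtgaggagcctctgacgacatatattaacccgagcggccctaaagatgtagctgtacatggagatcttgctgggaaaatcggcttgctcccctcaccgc
Tcf21: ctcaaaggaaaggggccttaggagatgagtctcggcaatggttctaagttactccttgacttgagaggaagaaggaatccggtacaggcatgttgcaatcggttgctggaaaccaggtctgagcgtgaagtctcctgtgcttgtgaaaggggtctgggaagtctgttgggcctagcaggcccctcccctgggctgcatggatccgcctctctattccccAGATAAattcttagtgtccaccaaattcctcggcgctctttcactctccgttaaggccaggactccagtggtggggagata
Isl1: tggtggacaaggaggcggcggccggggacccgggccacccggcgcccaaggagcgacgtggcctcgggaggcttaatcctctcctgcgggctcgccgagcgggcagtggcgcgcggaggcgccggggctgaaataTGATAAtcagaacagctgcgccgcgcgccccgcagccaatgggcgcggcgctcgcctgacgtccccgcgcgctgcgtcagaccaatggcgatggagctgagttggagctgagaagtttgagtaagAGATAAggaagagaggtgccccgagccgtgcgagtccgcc
Tbx20: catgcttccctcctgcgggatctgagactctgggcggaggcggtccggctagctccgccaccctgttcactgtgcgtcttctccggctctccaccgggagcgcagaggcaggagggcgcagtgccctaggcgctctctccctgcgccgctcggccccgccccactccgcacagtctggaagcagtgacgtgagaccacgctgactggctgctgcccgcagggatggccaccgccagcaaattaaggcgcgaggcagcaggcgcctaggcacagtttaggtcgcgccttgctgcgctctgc
The Hand2 window held 2 GATA matches, at -215 and -172 from the start site, beside an NK match at -235 and an E-box at -246. The NK letters, read on the other strand, also form an E-box of the general kind CANNTG. Isl1 had 2 GATA matches, at -115 and 11, and Tcf21 had 1, at -31, while the Tbx20 window had no match to any of the 4 motifs. Windows were found for 6 of the 8 genes, 8 windows in all with 3 for Mef2c, and 3 of the 6 genes held a GATA match, 2 an NK match, 2 an E-box and 0 a T-box match. Over all 32851 promoters of the same length, 18.6% held the GATA motif, 13.6% the NK motif, 17.2% the E-box and 10.2% the T-box motif. The windows of Isl1 and Tbx20 are rich in G and C, at 69.0% and 68.3%, and those of Hand2 and Tcf21 lie at 50.3% and 53.3%, beside a median of 52.7% over all promoters. A match describes these letters only, and binding of a factor was not measured.

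At day 0 none of the 8 genes passed a test between the lines, and at day 8 and day 16 most of them were lower in 1343KO embryoid bodies. Each gene was tested with limma on log2(FPKM + 1) in a fit over all 16289 genes that reached 1 FPKM in at least 2 libraries. All 8 with a row did, and a gene passed at a Benjamini-Hochberg adjusted p under 0.05. At day 8, 6 of the 8 passed as lower in 1343KO (Hand1, Hand2, Tbx20, Isl1, Nkx2-5 and Mef2c), where 42.8% of all genes tested passed, 23.3% as higher and 19.6% as lower. At day 16, 6 of 8 passed as lower, with Tcf21 in place of Nkx2-5, where 52.6% of all genes passed, 28.5% as higher and 24.1% as lower. None passed as higher at either day. At day 0, 0 of 8 passed and 0 had an unadjusted p under 0.05 in limma, where 3.71% of all genes passed, 1.59% as higher and 2.12% as lower, so a count of 0 is near the background. The libraries of the lines did not overlap at day 0 for Mef2c and Wt1, both with higher values in 1343KO, but neither passed (limma adjusted p = 0.739 and 0.839). Separation of 2 against 2 libraries alone has an exact permutation p of 0.333, and its share over all genes was not computed. The median difference of the 8 genes, 1343KO minus WT, was -1.79 at day 8 and -1.43 at day 16 on the log2(FPKM + 1) scale, beside medians over all genes of 0.06 and 0.07. Hand2, Tcf21, Mef2c, Tbx20 and Isl1 were under 1 FPKM in every day 0 library and passed the filter only through later ones. The log2(FPKM + 1) scale understates changes of low genes, and the smallest p that an exact permutation of 2 against 2 libraries can give is 0.333. The calls therefore depend on a spread shared across genes and groups. In bulk RNA, fewer cells of a type and less RNA per cell cannot be told apart.

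**Figure D1:**
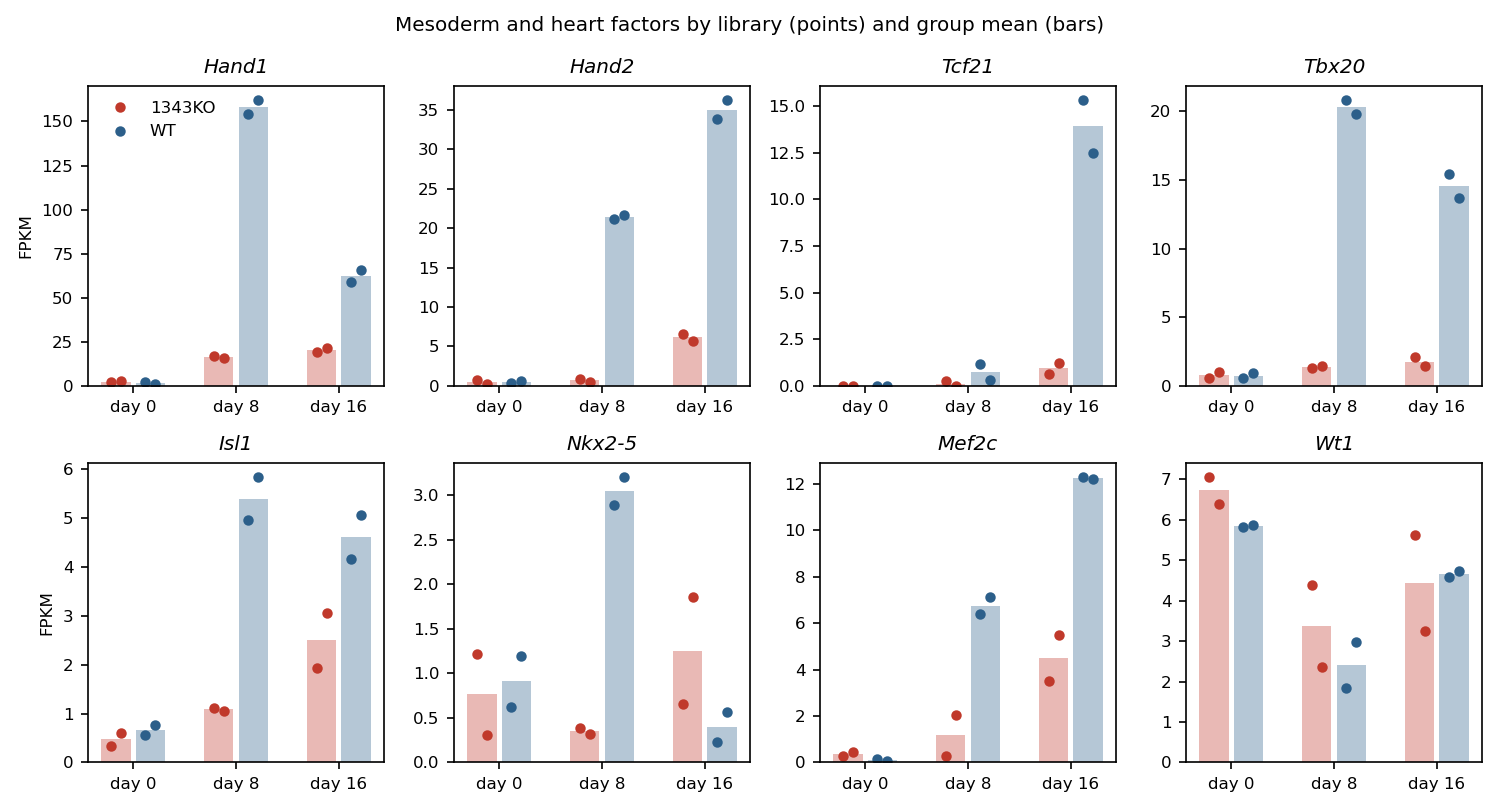
Level in FPKM (vertical axes, from 0, scaled per gene) of the 8 factors at days 0, 8 and 16, with 1343KO left of WT; points are libraries and bars are means of 2. The 1343KO libraries lie under the WT libraries at day 8 and day 16 for Hand1, Hand2, Tbx20, Isl1 and Mef2c, while Wt1 overlaps at both days.

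Hand1, a basic helix-loop-helix factor of extraembryonic mesoderm, trophoblast and the left ventricle (ENSMUSG00000037335, GRCm38 chr11:57828705-57832818, − strand), was the most abundant of the 8 at day 8 and day 16 in both lines; at day 0 Wt1 was higher. At day 0 it was at 2.20 and 2.62 FPKM in 1343KO cells and at 2.36 and 1.32 FPKM in WT cells. By day 8 it had reached 16.9 and 15.6 FPKM in 1343KO embryoid bodies and 154 and 162 FPKM in WT ones, where it ranked 349th of the 16289 genes. At day 16 it was at 19.0 and 21.6 FPKM in 1343KO and at 58.9 and 65.7 FPKM in WT. The lines overlapped at day 0 and were far apart later, with both 1343KO libraries under both WT libraries. The mean in 1343KO was 10.3% of that in WT at day 8 (log2 difference -3.21, SE 0.17, adjusted p = 1.11e-06) and 32.6% at day 16 (-1.57, SE 0.17, adjusted p = 4.57e-05).

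Hand1 rose with time in both lines. Its level at day 8 was 6.74 times that of day 0 in 1343KO (log2 change 2.34, SE 0.17, adjusted p = 2.19e-05) and 85.8 times in WT (5.83, adjusted p = 1.70e-08). It was the only 1 of the 8 that passed in the 1343KO line by day 8, where 23.5% of all genes passed, 15% as higher and 8.51% as lower. From day 8 to day 16 Hand1 fell in WT (log2 change -1.33, adjusted p = 0.000408) and changed by 0.30 in 1343KO (adjusted p = 0.517). The order of the groups by mean was WT day 8, WT day 16, 1343KO day 16, 1343KO day 8, 1343KO day 0 and WT day 0, and the ranges overlapped only between the last pair.

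Hand2, the sister factor of Hand1, known for the right ventricle, the pharyngeal arches and the limb bud (ENSMUSG00000038193, GRCm38 chr8:57320983-57324633, + strand), was late in the 1343KO line. At day 0 it was at 0.796 and 0.298 FPKM in 1343KO cells and at 0.308 and 0.635 FPKM in WT cells. By day 8 it was still at 0.922 and 0.477 FPKM in 1343KO and at 21.2 and 21.6 FPKM in WT. The 1343KO libraries of day 8 overlapped those of day 0. Hand2 reached 6.63 and 5.72 FPKM in 1343KO and 33.8 and 36.2 FPKM in WT at day 16. The 1343KO mean was 3.27% of the WT mean at day 8 (log2 difference -3.73, SE 0.21, adjusted p = 1.87e-06), the lowest percentage of the 6 genes that passed, and 17.7% at day 16 (-2.33, SE 0.21, adjusted p = 1.76e-05).

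Between day 8 and day 16 Hand2 rose in 1343KO by 2.09 on the log2(FPKM + 1) scale (SE 0.21, adjusted p = 0.00325), the only 1 of the 8 to pass there, where 0.804% of all genes passed, 0.602% as higher and 0.203% as lower. Without 1343KO day 16 replicate 1 the Hand2 change was 2.0 with an adjusted p of 0.0505. In WT the change over the same days was 0.68 (adjusted p = 0.041), and it did not pass under 10 of the alternatives, where the adjusted p was 0.0505 to 0.287. These included leaving out any of the WT libraries of day 8 or day 16 and either 1343KO library of day 16. Hand2 lies on chromosome 8. For 214 genes of that chromosome whose mean reached 20 FPKM, the median difference, 1343KO minus WT, was -0.42 at day 0, against 0 for such genes elsewhere. For day 8 these medians were -0.16 and 0.25, and for day 16 they were 0.06 and 0.40. The part of the chromosome in the Hand2 difference was not tested.

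AV026068, which GENCODE M21 names Hand2os1, is a noncoding gene on the opposite strand that shares 3251 bases with Hand2. It was at 0.763 and 2.85 FPKM in 1343KO cells and at 0.221 and 2.12 FPKM in WT cells at day 0. Values of day 8 were 4.21e-05 and 0.224 FPKM in 1343KO, against 6.26 and 6.53 FPKM in WT. Values of day 16 were 3.27 and 0.975 FPKM in 1343KO, against 28.3 and 24.2 FPKM in WT. Like Hand2 it was lower in 1343KO at day 8 (log2 difference -2.74, SE 0.52, adjusted p = 0.00219) and at day 16 (-3.23, adjusted p = 0.000589). Whether the authors' counting used strand is not given in the sources used here, so reads of the 2 genes in the shared bases cannot be told apart.

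Tcf21, a basic helix-loop-helix factor of the epicardium, of lung and kidney mesenchyme and of cardiac fibroblast precursors (ENSMUSG00000045680, GRCm38 chr10:22817281-22820174, − strand), came last. It was listed at 0 in all day 0 libraries of both lines. The day 8 embryoid bodies had 0.243 and 0 FPKM in 1343KO and 1.18 and 0.313 FPKM in WT, values that stand for about 0 to 14 fragments a library. At day 16 it was at 0.66 and 1.25 FPKM in 1343KO, against 15.3 and 12.5 FPKM in WT. The lines did not overlap at day 16, where the 1343KO mean was 6.87% of the WT mean (log2 difference -2.94, SE 0.28, adjusted p = 1.99e-05), the lowest percentage of that day. At day 8 the difference was -0.60 (SE 0.28, adjusted p = 0.109), and it passed only without WT day 8 replicate 2 (-0.97, adjusted p = 0.0284).

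In WT, Tcf21 rose from day 8 to day 16 by 3.13 on the log2(FPKM + 1) scale (SE 0.28, adjusted p = 5.55e-05), while Hand1 fell over the same days. Its WT change from day 0 to day 8 passed narrowly at 0.76 (adjusted p = 0.0435) and did not pass under 8 alternatives, where the adjusted p was 0.0575 to 0.298, the highest without WT day 8 replicate 1 (0.39). In 1343KO the change from day 0 to day 16 was 0.95 (adjusted p = 0.0313), and did not pass without filtering or without 1343KO day 16 replicate 2 or either 1343KO library of day 0 (adjusted p 0.0991 to 0.168). Gm10824, an antisense gene that shares 2894 bases with Tcf21, was at 0.169 and 0.241 FPKM in 1343KO at day 16, against 2.09 and 1.73 FPKM in WT (log2 difference -1.27, adjusted p = 0.000369), and here too strand cannot be told apart.

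**Figure D2:**
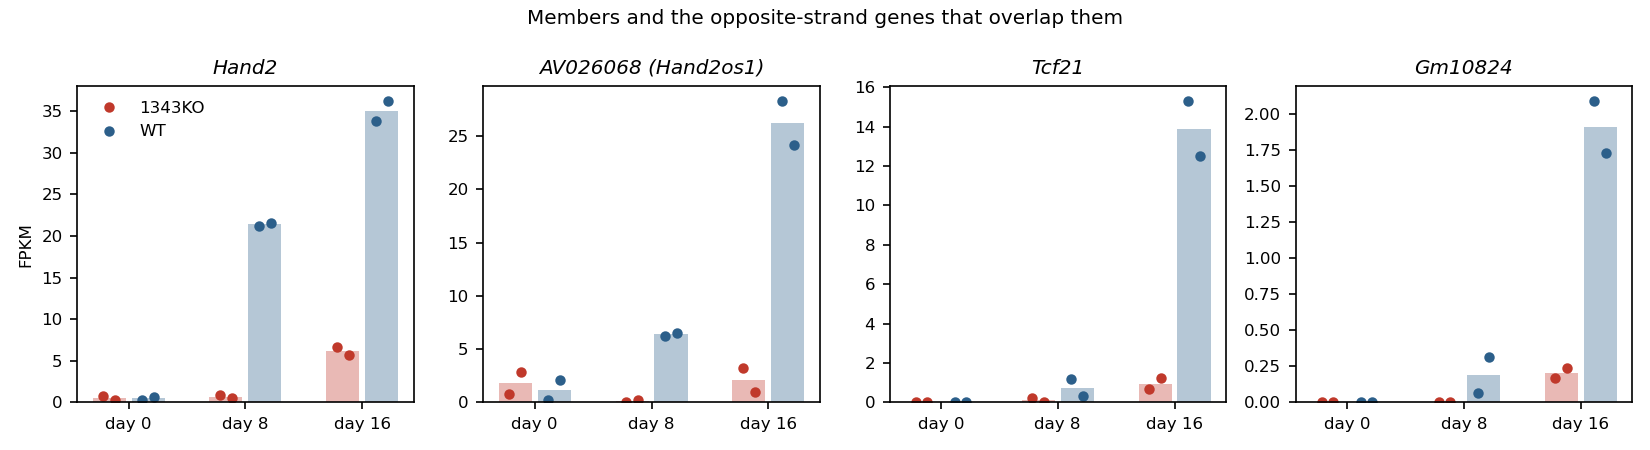
Level in FPKM (vertical axes, from 0, scaled per gene) of Hand2 and Tcf21, each left of the opposite-strand gene that overlaps it, at days 0, 8 and 16; points are libraries, bars are means of 2, and 1343KO is left of WT. At day 16 AV026068 is at 3.27 and 0.975 FPKM in 1343KO and at 28.3 and 24.2 FPKM in WT.

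Tbx20, a T-box factor of the cardiac chambers and valves (ENSMUSG00000031965, GRCm38 chr9:24718138-24774303, − strand), stayed low in the 1343KO line throughout. It was at 0.575 and 0.987 FPKM in 1343KO cells and at 0.544 and 0.919 FPKM in WT cells at day 0. The levels at day 8 were 1.31 and 1.44 FPKM in 1343KO, against 20.8 and 19.8 FPKM in WT. Those at day 16 were 2.07 and 1.43 FPKM in 1343KO, against 15.4 and 13.7 FPKM in WT. The highest 1343KO library of any day was below the lowest WT library of day 8 or day 16. The 1343KO mean was 6.76% of the WT mean at day 8 (log2 difference -3.17, SE 0.20, adjusted p = 3.03e-06) and 12% at day 16 (-2.51, SE 0.20, adjusted p = 6.99e-06). In 1343KO the change from day 0 to day 16 was 0.63 (adjusted p = 0.0449) and did not pass under 12 alternatives (adjusted p 0.0509 to 0.224), among them the removal of any 1343KO library except day 0 replicate 2 and of any WT library of day 8 or day 16.

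Isl1, a LIM homeodomain factor of second heart field progenitors and of motor neurons (ENSMUSG00000042258, GRCm38 chr13:116298281-116309689, − strand), was lower in 1343KO at both later days. At day 0 it was at 0.335 and 0.604 FPKM in 1343KO cells and at 0.552 and 0.765 FPKM in WT cells. It was at 1.12 and 1.06 FPKM in 1343KO and at 4.96 and 5.85 FPKM in WT at day 8. Levels at day 16 were 1.94 and 3.07 FPKM in 1343KO and 4.16 and 5.06 FPKM in WT. The groups overlapped at day 0 and not at the later days. The 1343KO mean was 20.2% of the WT mean at day 8 (log2 difference -1.61, SE 0.22, adjusted p = 0.000304) and 54.3% at day 16 (-0.69, SE 0.22, adjusted p = 0.0229). The Isl1 call at day 16 was lost under 5 alternatives with an adjusted p of 0.0567 to 0.156, among them without 1343KO day 16 replicate 1 (-0.46, adjusted p = 0.156) and without WT day 16 replicate 2 (-0.58, adjusted p = 0.132). Isl1 rose from day 0 to day 16 by 1.24 in 1343KO (adjusted p = 0.003) and by 1.76 in WT (adjusted p = 8.08e-05), and the difference between these changes was -0.52 (SE 0.31, adjusted p = 0.216).

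Nkx2-5, the NK homeodomain factor at the head of cardiac muscle specification (ENSMUSG00000015579, GRCm38 chr17:26838664-26841565, − strand), was the lowest of the 8 in WT at day 8 apart from Tcf21 and Wt1, and passed as higher than day 0 at that day alone. At day 0 it was at 1.22 and 0.311 FPKM in 1343KO cells and at 0.62 and 1.20 FPKM in WT cells. It was at 0.384 and 0.319 FPKM in 1343KO at day 8, against 2.89 and 3.21 FPKM in WT. At day 16 it was at 0.652 and 1.86 FPKM in 1343KO, against 0.234 and 0.561 FPKM in WT. The WT libraries of day 8 stood above all the other libraries. Some of the other groups overlapped, but at day 16 both 1343KO libraries lay above both WT libraries. The 1343KO mean at day 8 was 11.5% of the WT mean (log2 difference -1.58, SE 0.33, adjusted p = 0.004). At day 16 the difference was 0.65 (SE 0.33, adjusted p = 0.132), and without 1343KO day 16 replicate 1 it was 1.04 (adjusted p = 0.0424). In WT, Nkx2-5 fell from day 8 to day 16 by 1.54 on the log2(FPKM + 1) scale (adjusted p = 0.00765), a call lost without WT day 16 replicate 1 (-1.38, adjusted p = 0.061). Its WT change from day 0 to day 8 was 1.10 (adjusted p = 0.0201), lost under 5 alternatives (adjusted p 0.0608 to 0.117), including without WT day 0 replicate 1 or either WT library of day 8. These levels stand for about 2 to 29 fragments a library.

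Mef2c, a MADS-box factor that works with the others on muscle genes (ENSMUSG00000005583, GRCm38 chr13:83504034-83667080, + strand), was above its day 0 level at day 16 in both lines and did not pass between day 8 and day 16 in either. At day 0 it was at 0.284 and 0.464 FPKM in 1343KO cells and at 0.131 and 0.0706 FPKM in WT cells. At day 8 it was at 0.281 and 2.05 FPKM in 1343KO, replicates that lay far apart, and at 6.38 and 7.12 FPKM in WT. At day 16 it was at 3.51 and 5.48 FPKM in 1343KO, against 12.3 and 12.2 FPKM in WT. Both 1343KO libraries lay under both WT libraries at day 8 and at day 16, and above them at day 0. The 1343KO mean was 17.3% of the WT mean at day 8 (log2 difference -1.97, SE 0.36, adjusted p = 0.00173; 0.0534 with the day 8 libraries alone) and 36.6% at day 16 (-1.30, SE 0.36, adjusted p = 0.0124). The Mef2c call at day 16 was lost under 5 alternatives (adjusted p 0.0509 to 0.101), including without 1343KO day 16 replicate 1 (-1.04, adjusted p = 0.0847) and without WT day 16 replicate 1 (adjusted p = 0.0527) or 2 (adjusted p = 0.0509).
Mef2c at day 16 was 12 times its day 0 level in 1343KO (log2 change 1.98, adjusted p = 0.00344) and 122 times in WT (3.59, adjusted p = 1.80e-05). The day 0 values stand for about 12 and 14 fragments in the 1343KO libraries and 6 and 2 in the WT ones. Both ratios, and the gap between them, therefore rest on bases near the floor.

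Wt1, a zinc finger factor of kidney, gonad, mesothelium and epicardium (ENSMUSG00000016458, GRCm38 chr2:105126529-105173616, + strand), followed another course. It was highest at day 0, at 7.06 and 6.39 FPKM in 1343KO cells and at 5.82 and 5.86 FPKM in WT cells. At day 8 it was at 4.39 and 2.36 FPKM in 1343KO and at 1.84 and 2.97 FPKM in WT. At day 16 it was at 5.62 and 3.26 FPKM in 1343KO and at 4.59 and 4.74 FPKM in WT. The lines overlapped at day 8 and at day 16, with differences of 0.34 (SE 0.28, adjusted p = 0.363) and -0.09 (SE 0.28, adjusted p = 0.81). From day 0 to day 8 Wt1 fell in WT (log2 change -1.03, SE 0.28, adjusted p = 0.0129), a call lost without filtering (adjusted p = 0.085), without WT day 0 replicate 2 (0.0521) or without WT day 8 replicate 1 (0.0942). In 1343KO the change was -0.86 (adjusted p = 0.0553), and it passed under 5 alternatives, among them median-of-ratios scaling (-0.93, adjusted p = 0.0368) and TPM scaling (-1.03, adjusted p = 0.0426), and without either 1343KO library of day 16 or 1343KO day 8 replicate 1 (adjusted p 0.0297 to 0.0434). Wt1os, an antisense neighbour that shares no base with Wt1, was listed at 0 to 0.411 FPKM.

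**Figure D3:**
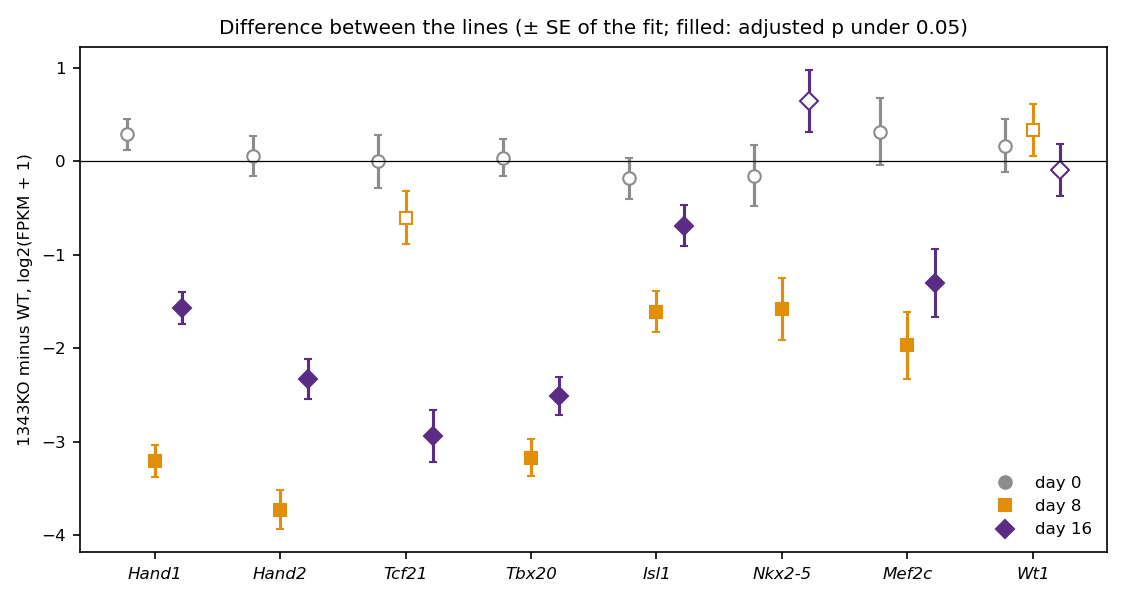
Difference between the lines, 1343KO minus WT, in log2(FPKM + 1) (vertical axis) for the 8 factors at days 0, 8 and 16; bars are standard errors of the limma fit and filled symbols passed at an adjusted p under 0.05. The differences at day 8 run from -3.73 for Hand2 to 0.34 for Wt1, and no symbol of day 0 is filled.

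Over time most of these genes rose in both lines, and for 6 of them the change by day 8 was less positive in 1343KO. In WT, 7 of the 8 rose by day 8 and Wt1 fell, where 51.3% of all genes passed, 26.8% as higher and 24.5% as lower. By day 16, 6 were above day 0 (all but Nkx2-5 and Wt1), where 61.2% passed, 32.7% as higher and 28.5% as lower. In 1343KO, 6 of the 8 were above day 0 at day 16 (Hand1, Hand2, Mef2c, Isl1, Tcf21 and Tbx20), where 26.8% of all genes passed, 18.2% as higher and 8.6% as lower. The median change of the 8 by day 16 was 1.10 in 1343KO and 3.38 in WT, beside medians over all genes of 0.11 and 0.02. With median-of-ratios scaling the 1343KO median over all genes was 0 in place of 0.11, and 51% of passing genes were higher in place of 67.9%. By day 8 the share was 52.1% in place of 63.8%, and 53.5% with TPM scaling. Between day 8 and day 16 in WT, Tcf21 and Hand2 rose, Hand1 and Nkx2-5 fell and 4 did not pass, where 27.6% of all genes passed, 14.1% as higher and 13.5% as lower.

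The change from day 0 to day 8 differed between the lines for Hand1, Hand2, Tbx20, Mef2c, Isl1 and Nkx2-5, each by a test of the difference itself, and in every case was less positive in 1343KO. Of all genes tested, 28.3% passed that test, 15.6% in the other direction and 12.7% in this one. For the change from day 0 to day 16 the same test passed for Hand1, Hand2, Tbx20, Tcf21 and Mef2c, where 40% of all genes passed, 21.7% in the other direction and 18.2% in this one. These comparisons share the day 0 libraries with those above.

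**Figure D4:**
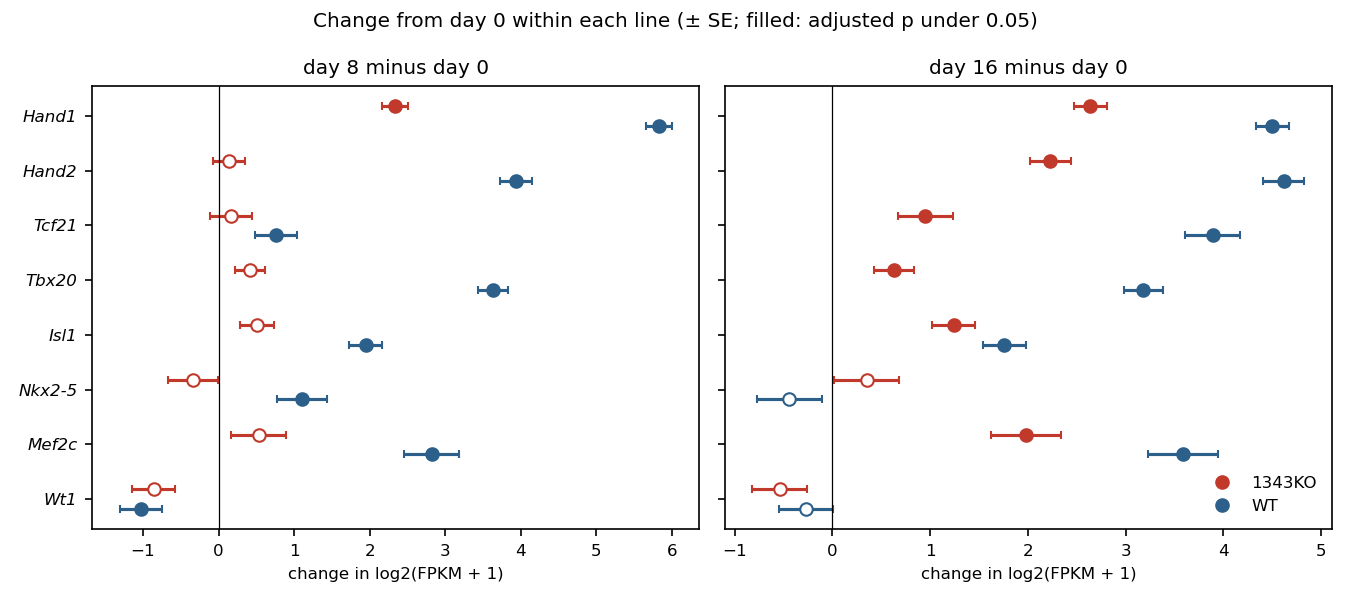
Change from day 0 in log2(FPKM + 1) (horizontal axes) to day 8 (left) and day 16 (right), with 1343KO above WT for each factor; bars are standard errors of the limma fit and filled symbols passed at an adjusted p under 0.05. At day 8 Hand1 has the single filled 1343KO symbol, at 2.34, against 5.83 in WT.

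Among other factors of heart and mesoderm, more were lower than higher in 1343KO at days 8 and 16. Of a list of 40 such genes, 39 had a row and 33 were tested. At day 8, 16 were lower and 2 higher in 1343KO (median -0.63). At day 16, 19 were lower and 6 higher (median -1.07), while at day 0, 4 were lower and 0 higher. Over all genes tested, 19.6% were lower and 23.3% higher at day 8, and 24.1% lower and 28.5% higher at day 16. For day 0 the shares were 2.12% lower and 1.59% higher. These shares are the background for each list below as well. This list and those below were chosen with earlier results of these data known. A count above the background therefore describes the chosen genes and carries no test. The genes with the smallest p at day 8 were Tead1, a DNA partner of Hippo signalling (-0.97), Tcf15, a factor of paraxial mesoderm and of ES cells primed to differentiate (1.5), Gata4, a zinc finger factor of heart and yolk sac (-2.30), and Tbx3 (-1.56). Gata4 was at 10.3 and 12.4 FPKM in 1343KO at day 8, against 64.3 and 55.1 FPKM in WT, and was already lower at day 0, at 3.25 and 2.04 FPKM in 1343KO cells and 19.4 and 23.8 FPKM in WT cells (log2 difference -2.64, adjusted p = 0.000108). Osr1 (-2.56) and Mef2a (-1.59) were lower at day 16, and Tcf15 was again higher (1.95). Mesp1, the early mark of cardiac mesoderm, was listed at 0 in all libraries of day 8, and Tbx5 was at 0 in 1343KO and at 0.582 and 0.752 FPKM in WT.

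Most genes of the signals that feed these factors were lower in 1343KO at day 8. The list held 29 genes, all tested. They were ligands, receptors and targets of the BMP, hedgehog, FGF and Wnt pathways, together with Pdgfra, Nodal and Kdr, a receptor that also stands in the endothelial list. At day 8, 22 were lower and 1, Nodal (2.87), was higher in 1343KO (median -1.25). At day 16, 17 were lower and 4 higher (median -0.54). At day 0, 3 were lower and 3 higher. Id2 (-2.18) and Id1 (-2.04), which BMP signalling induces, Pdgfra (-2.55), a receptor of mesoderm and primitive endoderm, and Smo (-1.61), the hedgehog transducer, had the smallest p at day 8. Id1 was at 26.8 and 23.7 FPKM in 1343KO, against 111 and 103 FPKM in WT. At day 16 Pdgfra (-2.79), Id2 (-1.85) and Ihh (-2.72), a hedgehog ligand, were lower and Nodal, a ligand that ES cells express, was higher (3.15). The others that were higher at day 16 were Fgf8 (2.09), Ptch1, a hedgehog target (0.65), and Id3, a BMP target (0.46). Ptch1 (-0.88) and Id3 (-1.64) had been lower at day 8. Fgf8, Ptch1 and Id3 were named after their values were seen. Of the genes named here, Pdgfra (-2.32) and Ihh (-1.01) had already passed as lower in 1343KO at day 0. Id2 (1.22), Id3 (1.18) and Ptch1 (0.69) had passed as higher at day 0, and Id1, Smo, Nodal, Fgf8 and Kdr did not pass there.

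Products of heart muscle passed in both directions at day 16. Of 24 such genes, 22 were tested. At day 8, 10 were lower and 2 higher in 1343KO (median -0.64), and at day 16, 7 were lower and 6 higher (median -0.08), shares near the 24.1% lower and 28.5% higher over all genes. At day 0, 0 passed. At day 8 Tnni1, slow troponin I, was at 1.31 and 1.72 FPKM in 1343KO, against 48.4 and 49.5 FPKM in WT (-4.32), and Mybpc3 (-2.75), Actc1 (-2.02) and Nebl (-2.30) were lower as well. At day 16 Mybpc3, cardiac myosin binding protein C, was at 0.871 and 1.43 FPKM in 1343KO, against 22.4 and 27.2 FPKM in WT (-3.59). Actc1, cardiac actin, was higher at day 16, at 13.8 and 15.4 FPKM in 1343KO, against 6.23 and 7.85 FPKM in WT (0.96, adjusted p = 0.00175). Myl7, the atrial myosin light chain, was at 8.57 and 11.9 FPKM in 1343KO, against 1.57 and 4.77 FPKM in WT (1.53, adjusted p = 0.0123). These were named after their values were seen, as were the other 4 that were higher, Atp2a2, Tnni3, Nebl and Myl4.

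Markers of the other tissues that use these factors moved too, and their part in the differences was not tested. Trophoblast genes, where Hand1 also acts, summed to 224 to 256 FPKM in 1343KO at day 8, against 70.3 to 70.4 FPKM in WT, and to 198 to 213 FPKM in 1343KO at day 16, against 71.1 to 85.2 FPKM in WT. Of 18 tested, 8 were higher and 2 lower at day 8 and 10 higher and 4 lower at day 16 (medians 0.40 and 0.90). The shares over all genes were 23.3% higher and 19.6% lower at day 8, and 28.5% higher and 24.1% lower at day 16. Prl3d1 and Prl2c2, hormones of giant cells, were listed at 0 in WT at day 16. In 1343KO at that day Prl3d1 was at 7.55 and 5.67 FPKM and Prl2c2 at 8.21 and 7.83 FPKM. Rhox6, Rhox9 and Tfap2c, genes of trophoblast and also of other early cells, made up 74.1% of the sum in 1343KO at day 8 and 18.9% in WT. Without these 3 the sum was 61.5 to 62.7 FPKM in 1343KO at day 8, against 56.1 to 58.1 FPKM in WT, and 66.1 to 79.3 FPKM in 1343KO at day 16, against 49.5 to 64.6 FPKM in WT. Cdx2, a factor that defines trophectoderm and also acts in posterior mesoderm, was lower at day 8, at 1.81 and 1.60 FPKM in 1343KO, against 12.8 and 16.2 FPKM in WT (-2.51, adjusted p = 9.33e-05). These genes were named after their values were seen. Motor and sensory neuron genes, where Isl1 and Tbx20 also act, summed to 29.4 to 32.3 FPKM in 1343KO at day 8, against 7.58 to 10.1 FPKM in WT, and to 42.3 to 45.0 FPKM in 1343KO at day 16, against 13.9 to 14 FPKM in WT. Of 11 tested, 5 were higher and 0 lower at day 8 and 5 higher and 1 lower at day 16 (medians 0.65 and 0.71), and Chat, the motor neuron enzyme, was listed at 0 in both lines at day 16. At day 0 the sum was already 116 to 119 FPKM in 1343KO cells and 124 to 128 FPKM in WT cells, higher than at either later day. Stmn2, a stathmin of growing neurons named here after its values were seen, carried most of it at day 0, at 81.6 and 82.1 FPKM in 1343KO cells and 95.4 and 99.7 FPKM in WT cells. Without Stmn2 the sum was 12.6 to 14.6 FPKM in 1343KO at day 8, against 5.10 to 7.11 FPKM in WT, and 24.1 to 24.6 FPKM in 1343KO at day 16, against 11 to 11.8 FPKM in WT.

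Mef2c is also a gene of vessels and macrophages. Endothelial genes summed to 86.8 to 87.5 FPKM in 1343KO at day 8, against 216 to 220 FPKM in WT, and to 92.1 to 94.7 FPKM in 1343KO at day 16, against 234 to 245 FPKM in WT. Of 15 tested, 11 were lower and 1 higher at day 8 and 12 lower and 0 higher at day 16 (medians -2.17 and -1.63). Macrophage genes summed to 9.34 to 12.8 FPKM in 1343KO at day 8, against 27.6 to 31.4 FPKM in WT, and to 9.03 to 9.65 FPKM in 1343KO at day 16, against 360.0 to 381 FPKM in WT. Of 15 macrophage genes tested, 4 were lower at day 8 and 15 at day 16 (medians -0.27 and -4.26), and C1qc, Tyrobp, Fcer1g and Ptprc were listed at 0 in 1343KO at day 16. Mef2c was at 6.38 and 7.12 FPKM in WT at day 8, when the macrophage sum there was 27.6 to 31.4 FPKM. Cd68 alone made up 48.3% of that sum in WT and 74.3% in 1343KO at day 8. The part of endothelial and macrophage cells in the Mef2c values was not tested.

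Tcf21 and Wt1 mark mesothelium, fibroblasts, kidney and gonad. Of 10 mesothelial and epicardial genes tested, 5 were lower and 1 higher in 1343KO at day 8 and 8 lower and 1 higher at day 16 (medians -0.56 and -1.29). Upk3b, a uroplakin of mesothelium, was at 0.198 and 0.237 FPKM in 1343KO at day 16, against 17.4 and 18.2 FPKM in WT (-3.95). Lrrn4 and Krt7, named after their values were seen, went the other way on 1 day each. Lrrn4 had a mean of 8.55 FPKM in 1343KO at day 16, against 1.74 FPKM in WT, but 7.11 against 11.9 FPKM at day 8. For Krt7 the mean was 14.2 FPKM in 1343KO at day 8, against 3.95 FPKM in WT, but 7.77 against 26.0 FPKM at day 16. The sum of the mesothelial and epicardial list was 92.4 to 109 FPKM in 1343KO at day 8, against 320.0 to 322 FPKM in WT, and 91.6 to 101 FPKM in 1343KO at day 16, against 226 to 248 FPKM in WT. Muc16, which was not tested, was listed at 0 in 1343KO on both days. In WT it was hardly detected either, at 0 and 0.00599 FPKM at day 8 and at 0.0947 and 0.0634 FPKM at day 16. Podxl, a sialomucin (podocalyxin) that stands in both this list and the nephron and gonad list, made up 46.8% of the sum in 1343KO at day 8 and 77.8% in WT. Without it, a step chosen after the values were seen, the sum was 44.8 to 62.3 FPKM in 1343KO at day 8, against 69.3 to 72.9 FPKM in WT, and 41.6 to 46.7 FPKM in 1343KO at day 16, against 134 to 149 FPKM in WT. Mesenchyme and fibroblast genes summed to 381 to 393 FPKM in 1343KO at day 8, against 1199 to 1247 FPKM in WT, and to 399 to 406 FPKM in 1343KO at day 16, against 5806 to 5977 FPKM in WT. Of the list, 12 of 14 tested were lower and 1 higher at each of these days (medians -2.37 and -3.58). Of 9 nephron and gonad genes tested, 5 were lower and 2 higher at day 8 and 6 lower and 3 higher at day 16 (medians -1.22 and -0.85). Over all genes, 19.6% were lower and 23.3% higher at day 8, and 24.1% lower and 28.5% higher at day 16. The shares that were higher in this list are near that background. The sum of the nephron and gonad list was 102 to 110.0 FPKM in 1343KO at day 8, against 339 to 348 FPKM in WT, and 115 to 119 FPKM in 1343KO at day 16, against 161 to 176 FPKM in WT. Without Podxl that sum was 55.7 to 62.1 FPKM in 1343KO at day 8, against 91.7 to 96.0 FPKM in WT, and 63.8 to 65.0 FPKM in 1343KO at day 16, against 69.6 to 77.1 FPKM in WT. Wt1 overlapped between the lines at both days.

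Pluripotency genes summed to 3129 to 3199 FPKM in 1343KO at day 8, against 215 to 252 FPKM in WT, and to 2625 to 2635 FPKM in 1343KO at day 16, against 147 to 160.0 FPKM in WT. All 12 of them were higher in 1343KO at day 8 and 11 at day 16 (medians 3.68 and 4.18). Skeletal muscle genes, a check on muscle outside the heart, had 4 of 14 tested, with 2 higher and 1 lower at day 8 and 2 higher and 0 lower at day 16 (medians 2.1 and 1.4). Their sum was 114 to 119 FPKM in 1343KO at day 8, against 17.9 to 24.3 FPKM in WT, and 96.0 to 129 FPKM in 1343KO at day 16, against 10.9 to 28.2 FPKM in WT, and Myf6 and Mymk were listed at 0 in both lines on both days. Mylpf, a myosin light chain, made up 68.2% of that sum in 1343KO at day 8. At day 0 Mylpf was at 150 and 284 FPKM in 1343KO cells and at 556 and 89.1 FPKM in WT cells, replicates that lay far apart. The skeletal muscle sum was already 224 to 357 FPKM in 1343KO cells and 181 to 652 FPKM in WT cells at day 0. These sums moved with the member differences of days 8 and 16 as well, and their part was not tested.

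**Figure D5:**
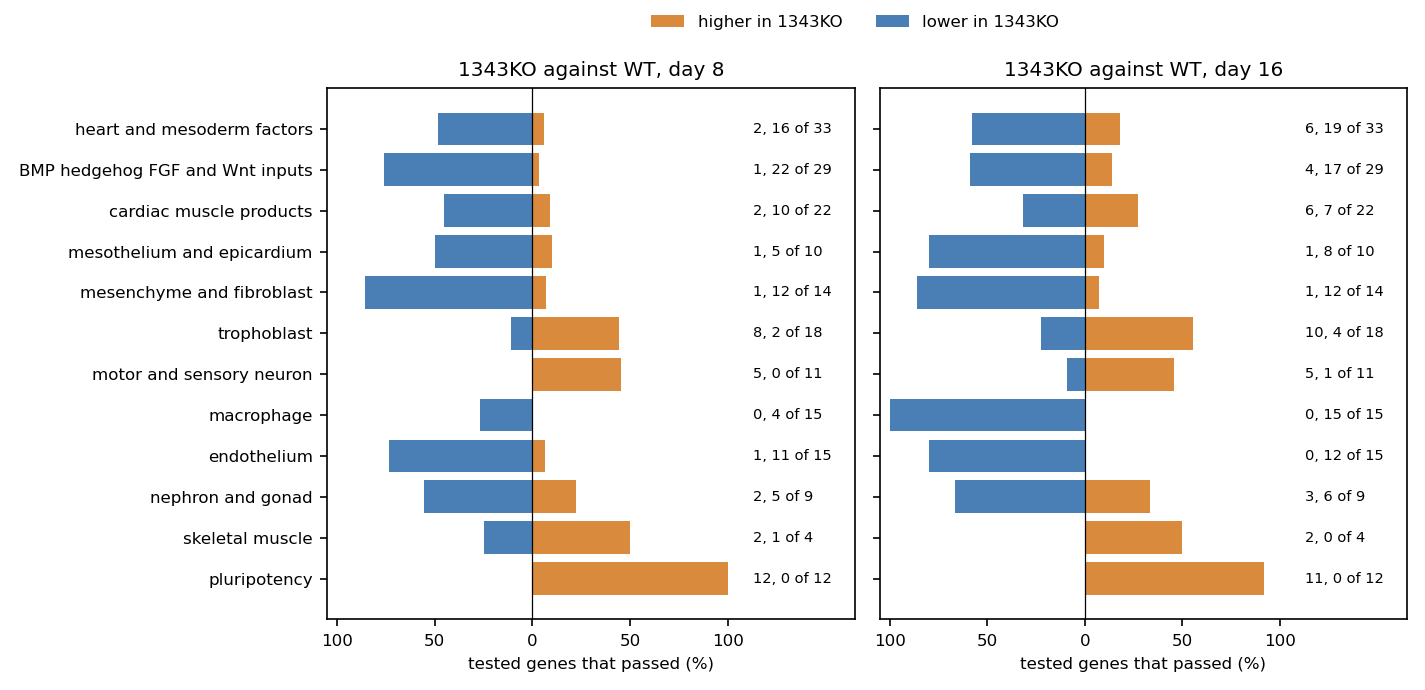
Share of tested genes (%, horizontal axes) of 12 lists that passed as higher (right of 0) or lower (left of 0) in 1343KO against WT at day 8 and day 16; the numbers at the right of each row give the genes higher, lower and tested. Of 33 heart and mesoderm factors, 16 were lower at day 8 and 19 at day 16. Over all genes tested, 19.6% were lower and 23.3% higher at day 8, and 24.1% lower and 28.5% higher at day 16.

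Among themselves, Hand1, Hand2, Tbx20, Isl1 and Mef2c varied together over the 12 libraries, with pairwise correlations of 0.85 to 0.95. The highest Pearson correlations of log2(FPKM + 1) were 0.95 for Hand2 and Isl1 and 0.94 for Hand1 with Isl1, Hand2 with Mef2c and Isl1 with Mef2c, and those of Wt1 with the other 7 ran from -0.73 to -0.08. The 12 points are 6 groups of 2 libraries that share line and day, so these values describe the groups and carry no test. Among 8458 named genes that reached 10 FPKM, Smoc2, a secreted matrix protein, was the most like Tbx20 (r = 0.997), with means of 1.70 FPKM in 1343KO and 53.7 FPKM in WT at day 8, followed by Meg3 (0.993) and Cpd (0.992). Tet3 (0.991), Pdgfrb (0.989) and Dlk1 (0.988) were nearest to Hand2, and Ahcyl1 (0.992), Cd55 (0.991) and Prag1 (0.991) to Hand1. Kctd12 (0.994), Sprr1a (0.989) and Ifi27 (0.988) were nearest to Tcf21, and Foxo4 (0.985), Hsd11b2 (0.985) and Tnni1 (0.983) to Isl1. Mef2c had Ttyh3 (0.976), Ttc3 (0.973) and Ccdc8 (0.967), and likeness was lower for Wt1, with Mfap1a (0.925), Ppp1r11 (0.895) and Foxp1 (0.890), and for Nkx2-5, with Mapk8 (0.909), Mki67 (0.898) and Guf1 (0.895).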

How the data were processed

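Poly(A) RNA was sequenced from 12 libraries. The deposited values are FPKM per gene, computed by the authors; Cufflinks 2.1.1 and GRCm38 (mm10) are named in the submitters' processing notes. For aligner, annotation and strand setting, nothing is given in the sources used here. Gene IDs matched GENCODE M21 for 99.9% of genes. Start coordinates in the file count from 0; after adding 1, 98.7% equalled that annotation, and they are printed so. An exact 0 can be a failed estimate (of 6620 genes whose median reaches 10 FPKM, 17 have such a value), hence the wording "listed at 0". Depth was estimated from values near whole multiples of 1 fragment (85.8% to 88.8% within 5%, transcripts of at least 1500 nt, an assumed 200 nt fragment). No count test was run on this approximate depth.

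The 16289 genes at 1 FPKM or more in 2 or more libraries were fitted with limma 3.58.1 in R 4.3.3 on log2(FPKM + 1), with 1 mean per group, a variance trend and 6 residual degrees of freedom; 11 contrasts were tested, two-sided, with Benjamini-Hochberg adjustment within each. The fit was tested on simulated data for 1343KO against WT at day 0, with 200 of the 16289 genes changed, all above about 1 FPKM in WT at day 0. It recovered 66% of the 2-fold changes of FPKM + 1 and 91% of the 4-fold ones, and 5.99% of its calls were false. Hand2, Tcf21, Tbx20, Isl1, Nkx2-5 and Mef2c had WT day 0 means under 1 FPKM, so these rates do not cover them. Nor do the rates cover the contrasts of later days, where far more genes passed. Alternatives were no filter, a pseudocount of 0.1, scaling to TPM or by median of ratios, a block for the replicate number, each library left out, and the libraries of each day alone.

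The members and lists were chosen with earlier results of these data known. Text names all members, up to 4 passing genes with the smallest p per list, the 3 genes most like each member, overlapping genes and Snhg3; some genes that this rule names are not reported here. Foxc2, Acta1, Fendrr, Hand1os and Tcf21os were not analysed here. Tables were made with pandas 2.3.3 and numpy 2.4.6 in Python 3.11.15, and figures with matplotlib 3.10.9.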

Additional observations from a re-analysis of the deposited data

Results flagged for a closer look

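The change from day 0 to day 8 differed between the 1343KO and WT lines, by a test of the difference itself in limma, for 6 of the 8 factors. On the log2(FPKM + 1) scale the change in 1343KO minus the change in WT was -3.79 for Hand2 (SE 0.30, adjusted p = 4.31e-05), which changed by 0.14 in 1343KO and 3.94 in WT. It was -3.49 for Hand1 (SE 0.24, adjusted p = 1.88e-05) and -3.21 for Tbx20 (SE 0.28, adjusted p = 6.67e-05). Mef2c differed by -2.29 (SE 0.50, adjusted p = 0.00874; 0.0745 without the filter on low values) and Isl1 by -1.43 (SE 0.31, adjusted p = 0.00771). Nkx2-5 differed by -1.44 (SE 0.47, adjusted p = 0.0477) and passed only narrowly: under 13 alternatives its adjusted p was 0.0516 to 0.232, among them the removal of any WT library or of any 1343KO library of day 8 or of 1343KO day 0 replicate 1.

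For the change from day 0 to day 16 the lines differed for 5 factors. Tcf21 differed by -2.94 (SE 0.39, adjusted p = 0.00035), with changes of 0.95 in 1343KO and 3.89 in WT; both lines were listed at 0 at day 0. Tbx20 differed by -2.55 (SE 0.28, adjusted p = 0.000124), Hand2 by -2.39 (SE 0.30, adjusted p = 0.00027) and Hand1 by -1.85 (SE 0.24, adjusted p = 0.000286). Mef2c differed by -1.62 (SE 0.50, adjusted p = 0.0297), a call lost under 9 alternatives (adjusted p 0.0523 to 0.174), among them without either library of day 0 of either line, either WT library of day 16 or 1343KO day 16 replicate 1. Over all genes tested, 28.3% passed the test to day 8 and 40% that to day 16.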

How the results depend on the processing

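Over 1520 values of single members under the alternatives, 1430 kept their side of the threshold (20 of these, uncalled, changed sign), 79 lost a call, 11 gained 1 and 0 called values changed sign. With no filter, 5 of the 8 factors passed for WT day 8 against day 0 in place of 8, and 2 passed for WT day 16 against day 8 in place of 4. Calls over all genes fell as well, to 6652 in place of 8352 and to 3384 in place of 4495. For 1343KO day 8 against day 0, TPM scaling gave 2 and median-of-ratios scaling 2 in place of 1, since Wt1 passed as lower. Over all genes these scalings gave 3803 and 3895 calls in place of 3828. With each library left out in turn, the number that passed ran from 6 to 7 at day 8 and 4 to 6 at day 16 for 1343KO against WT, 0 to 0 at day 0, 5 to 8 for WT day 8 against day 0, 6 to 6 for WT day 16 against day 0, 2 to 5 for WT day 16 against day 8, 1 to 3 for 1343KO day 8 against day 0, 4 to 6 for 1343KO day 16 against day 0, 0 to 2 for 1343KO day 16 against day 8, 5 to 6 for the difference in change to day 8 and 4 to 5 for that to day 16. Calls over all genes also fell whenever a library of a compared group was left out. A lone library is then assumed to vary like the other groups.

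Replicate numbers did not pair the samples: deviations of same-numbered libraries correlated at -0.04 to 0.04 over 15 pairs of groups. With the number as a replicate block in limma, 6 factors passed at day 8 and 6 at day 16 for 1343KO against WT. Over all genes, 6902 passed at day 8 and 8522 at day 16 in that fit. It lost 3 calls. They were Hand2 in WT day 16 against day 8 (adjusted p = 0.0505) and Tbx20 in 1343KO day 16 against day 0 (0.0607). The last was Nkx2-5 in the difference in change to day 8 (0.0588).

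Over all genes, 604 passed at day 0 for 1343KO against WT, 306 with no filter, 197 to 324 without a day 0 library and 0 with the day 0 libraries alone, where 2489 had an unadjusted p under 0.05. For 1343KO day 16 against day 8, 131 passed, and 23 to 54 without a library of those groups. For 1343KO day 8 against day 0, 3828 passed and 2317 with no filter; for 1343KO day 16 against day 0, 4368 and 2745; for the difference in change to day 8, 4605 and 2960. A pseudocount of 0.1 moved values of low genes by over 1.5 times, for example Tcf21 in WT day 16 against day 0 (7.12 in place of 3.89) and Nkx2-5 in 1343KO against WT at day 8 (-2.80 in place of -1.58). Depth limits Nkx2-5 and Tcf21 most, where 1 fragment is about 0.0953 to 0.157 and 0.0796 to 0.131 FPKM.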
